A study of Mus musculus with 17 samples.

Results

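The growth hormone and STAT5 axis genes were 10 genes chosen by symbol from the table of normalized counts of all libraries: Ghr, Igf1, Igfals, Socs2, Cish, Stat5a, Stat5b, Bcl6, Hsd3b5 and Selenbp2. All 10 were found among the 24676 genes of the table, and all 10 were among the 13379 genes that passed the filter on low values, which asked for 10 normalized counts or more in 4 libraries or more. A normalized count is the number of reads of a gene divided by a size factor of its library, so it can be compared between libraries. The study measured liver RNA of male Gata4 fl/fl mice of mixed strain by RNA sequencing, in 17 libraries.

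In every group both Gata4 alleles carried loxP sites, the mice were 11 weeks old per the sample labels, and an AAV8 virus had been given at 10 weeks of age. The series design text gives a younger age, so the age is not settled. The virus was empty in control mice and, in Gata4LKO mice, carried the Cre recombinase with the promoter Tbg, which is active in hepatocytes, so Cre and the Gata4 genotype cannot be told apart. After 1 week the mice received GW3965, an agonist of the liver X receptors, by gavage at 40 mg/kg in canola oil, 17 h and again 8 h before they were killed, or dimethylsulfoxide in the same oil as vehicle, and had fasted for 4 h. The groups were control with vehicle (4 libraries), Gata4LKO with vehicle (4), control with GW3965 (4) and Gata4LKO with GW3965 (5). Groups follow the sample titles; the treatment label contradicted the title in all libraries of the Gata4LKO vehicle and control GW3965 groups. The labels do not say that each library came from its own mouse, so the p-values measure the spread between these libraries.

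Growth hormone from the pituitary binds its receptor on hepatocytes, which activates the kinase JAK2 and the transcription factors STAT5A and STAT5B. STAT5 dimers enter the nucleus and raise genes such as Igf1, Igfals, Socs2 and Cish, and they lower Bcl6. In male mice and rats the hormone is released in pulses, and liver STAT5B activity maintains male-biased genes, among them Hsd3b5 and Selenbp2. The feedback targets Socs2 and Cish follow single pulses and can therefore differ widely between animals killed at different moments after a pulse.

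Reads in genes ranged from 11.8 M to 22.05 M per library. In 5 libraries the mitochondrially encoded share of the values was 15.6% to 32.6%, against 6.06% to 7.26% in the other 12. These were 1 control vehicle, 2 control GW3965 and 2 Gata4LKO GW3965 libraries (replicates 1, 10, 13, 17 and 18). The targeted gene, Gata4, did not go with the labels: its mean ± SD was 153 ± 27.3 (n = 4) in control and 194 ± 44.2 (n = 4) in the libraries labelled Gata4LKO with vehicle, and 221 ± 44.1 (n = 4) and 219 ± 41.2 (n = 5) with GW3965. No drop in Gata4 was therefore measured, and Gata4LKO is used here only as the label of these libraries. Reads of a gene with a deleted exon can still be counted. Counts assigned to Gm5345, a predicted gene, were below 10 in all 4 Gata4LKO vehicle libraries and in 2 control GW3965 libraries and were 10 or above in all others, so with vehicle this split cannot be told apart from genotype. The summed counts of 6 hepatocyte markers were 1619740 to 1768540 in control and 1258220 to 1475400 in Gata4LKO with vehicle, which did not overlap, and 1345570 to 2034510 and 1122060 to 1486580 with GW3965. Alb made up most of these sums, with means of 1377920 in control and 1084010 in Gata4LKO with vehicle. Singly, Alb, Ahsg and Apoa2 did not overlap between those 2 groups, while Ttr, Serpina1c and Tat did. Summed counts of 6 Kupffer cell and macrophage markers were 1868 to 2622 in control vehicle libraries and 3174 to 4721 in the other 3 groups. Sums of 5 stellate cell markers were 3959 to 5771 in Gata4LKO with GW3965 and 2828 to 4076 in the other 3 groups. In bulk liver, fewer cells of a type and less RNA per cell cannot be told apart.

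Promoters of 4 members are shown because STAT5 binds the sequence TTCNNNGAA, which BCL6 also recognises in part. The members were grouped as receptor, signalling, feedback and liver target genes of growth hormone. The letters are from RefSeq (GRCm38.p6), 250 bases before to 30 bases after a RefSeq start site, 5′ to 3′ on the gene's strand, with matches to TTCNNNGAA in capitals. The motif reads the same on both strands, so 1 search covers both.
Cish: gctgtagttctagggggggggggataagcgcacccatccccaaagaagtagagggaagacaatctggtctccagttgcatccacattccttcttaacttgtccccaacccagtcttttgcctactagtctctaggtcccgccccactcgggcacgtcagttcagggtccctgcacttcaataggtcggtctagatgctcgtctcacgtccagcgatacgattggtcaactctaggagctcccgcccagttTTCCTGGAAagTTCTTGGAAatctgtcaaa
Igfals: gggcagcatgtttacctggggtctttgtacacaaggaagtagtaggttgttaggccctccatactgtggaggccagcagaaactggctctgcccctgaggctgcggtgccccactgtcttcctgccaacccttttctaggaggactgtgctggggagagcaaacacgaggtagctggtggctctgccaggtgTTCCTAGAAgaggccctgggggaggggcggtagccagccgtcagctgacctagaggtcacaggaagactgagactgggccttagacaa
Bcl6: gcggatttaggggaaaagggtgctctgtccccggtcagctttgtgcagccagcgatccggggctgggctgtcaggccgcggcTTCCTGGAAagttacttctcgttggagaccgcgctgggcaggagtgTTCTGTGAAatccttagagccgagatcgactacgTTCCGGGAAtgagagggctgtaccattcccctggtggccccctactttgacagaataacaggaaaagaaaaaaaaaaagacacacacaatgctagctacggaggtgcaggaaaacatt
Selenbp2: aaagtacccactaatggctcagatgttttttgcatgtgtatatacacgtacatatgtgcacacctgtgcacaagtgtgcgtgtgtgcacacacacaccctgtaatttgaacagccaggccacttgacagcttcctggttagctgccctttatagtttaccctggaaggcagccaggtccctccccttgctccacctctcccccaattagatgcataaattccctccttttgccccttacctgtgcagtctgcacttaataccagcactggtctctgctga

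The Cish window (chr9:107296409-107296688, plus strand) held 2 matches after its start, TTCCTGGAA at base 1 and TTCTTGGAA at base 12, counted from 1 at the start site. The Igfals window shown (chr17:24877981-24878260, plus strand) held TTCCTAGAA at base -58, and another Igfals start had TTCTCAGAA at base -236. The Bcl6 window shown (chr16:23981254-23981533, minus strand, a start inside the gene model) held 3 matches, at bases -168, -122 and -88. The bases after this start were not found in a GENCODE M21 transcript. For another Bcl6 start such bases were found, and its window held 1 match, TTCTCAGAA at base -118. The Selenbp2 window (chr3:94693323-94693602, plus strand) held none, which says only that these letters are not in it. RefSeq windows were at hand for 9 members, with 15 windows of 300 bases in all; 5 windows of 3 members held the motif. Of all 32851 windows in the table, 8.3% held at least 1 match, 0.457% at least 2 and 0.0335% at least 3. These matches are a description of the letters and not measured binding sites.

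All 10 members are protein-coding genes in GENCODE M21 on the mm10 genome build. Stat5b (chr11:100780731-100850724, minus strand) and Stat5a (chr11:100859351-100885169, plus strand) are neighbours that lie 8626 bases apart and are transcribed away from each other. Ghr is at chr15:3317760-3583492, Igf1 at chr10:87858265-87937042 and Socs2 at chr10:95385362-95417180. Igfals is at chr17:24865997-24882010, Cish at chr9:107296026-107302784 and Bcl6 at chr16:23965052-23988852. Hsd3b5 (chr3:98618634-98630252) and Selenbp2 (chr3:94693556-94704413) are both on chromosome 3.

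Levels were averaged over all libraries and divided by the joined length of all annotated exons of a gene. The level was highest for Igf1, at 1391 normalized counts per kilobase of exon, followed by Ghr at 1156 and Hsd3b5 at 544. Igfals at 213, Stat5b at 144 and Selenbp2 at 93.7 per kilobase came next. The lowest levels per kilobase were those of Bcl6 (49.0), Cish (18.9), Stat5a (17.8) and Socs2 (16.9). Stat5b was thus the more abundant of the STAT5 genes on this scale. This order depends on which exons are annotated and not on the transcripts present. It is a description, and no test was made between genes.

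**Figure D1:**
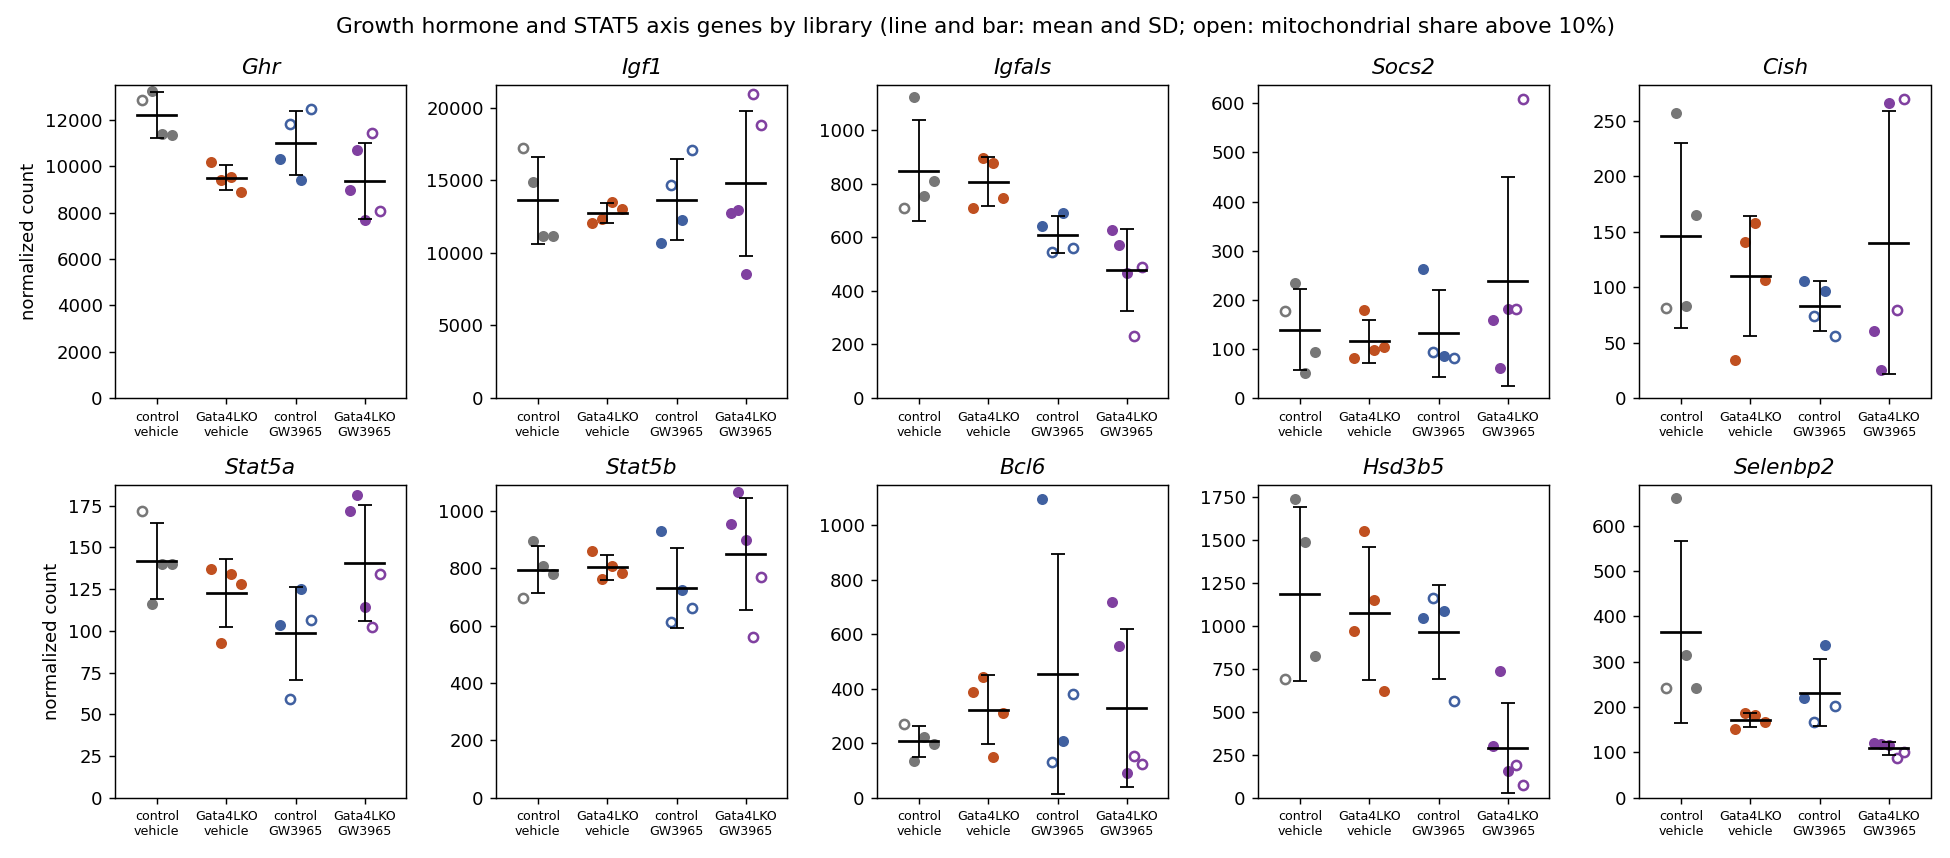
Normalized counts of the 10 genes (vertical axes, each from 0) in every library, by group on the horizontal axis; lines and bars give the mean and SD, and open points are the 5 libraries with a mitochondrial share above 10%. Selenbp2 is lower in both Gata4LKO groups than in the matching control groups, and Hsd3b5 is lowest in Gata4LKO libraries with GW3965.

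Comparisons used limma-trend on log2(normalized count + 1) in 1 fit of all 17 libraries, with Benjamini-Hochberg adjustment over the 13379 genes tested. Genes with an adjusted p below 0.05 are named as called. The design gives 4 comparisons between pairs of groups, the interaction of genotype and treatment, and each factor averaged over the other. The pairs share groups, so their results are not independent of each other.

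2 members were called, each in 1 averaged comparison. Selenbp2, which encodes a selenium-binding protein of the liver, was lower in Gata4LKO averaged over treatments. Igfals, which encodes the subunit that holds IGF1 in the large complex of the blood, was lower with GW3965 averaged over genotypes. Over all genes tested, the share called was 0.224% in the averaged genotype comparison (0.179% lower) and 1.78% in the averaged GW3965 comparison (0.441% lower). No member was called in the 4 comparisons between pairs of groups or in the interaction by limma, where the share of all genes called was 0.0149% for genotype with vehicle, 0.0598% for genotype with GW3965, 0.792% for GW3965 in control, 0.247% for GW3965 in Gata4LKO and 0.0149% for the interaction. At an unadjusted p below 0.05, the same comparisons held 2, 3, 2, 3 and 2 of the 10 members, against 6.15%, 6.47%, 8.96%, 12% and 4.65% of all genes; the averaged genotype and GW3965 comparisons held 3 each, against 7.19% and 15.3%. By edgeR on the recovered reads 0 members were called in these 5 comparisons, beside 2, 5, 101, 31 and 0 of all 13379 genes. By DESeq2 on those reads the numbers of members were 1, 1, 0, 2 and 0. The DESeq2 numbers over all 13379 genes were 49, 81, 226, 200 and 26. The median log2 difference of the members lay between -0.20 and 0.13 over the 7 comparisons, and that of all genes tested between -0.01 and 0.00.

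**Figure D2:**
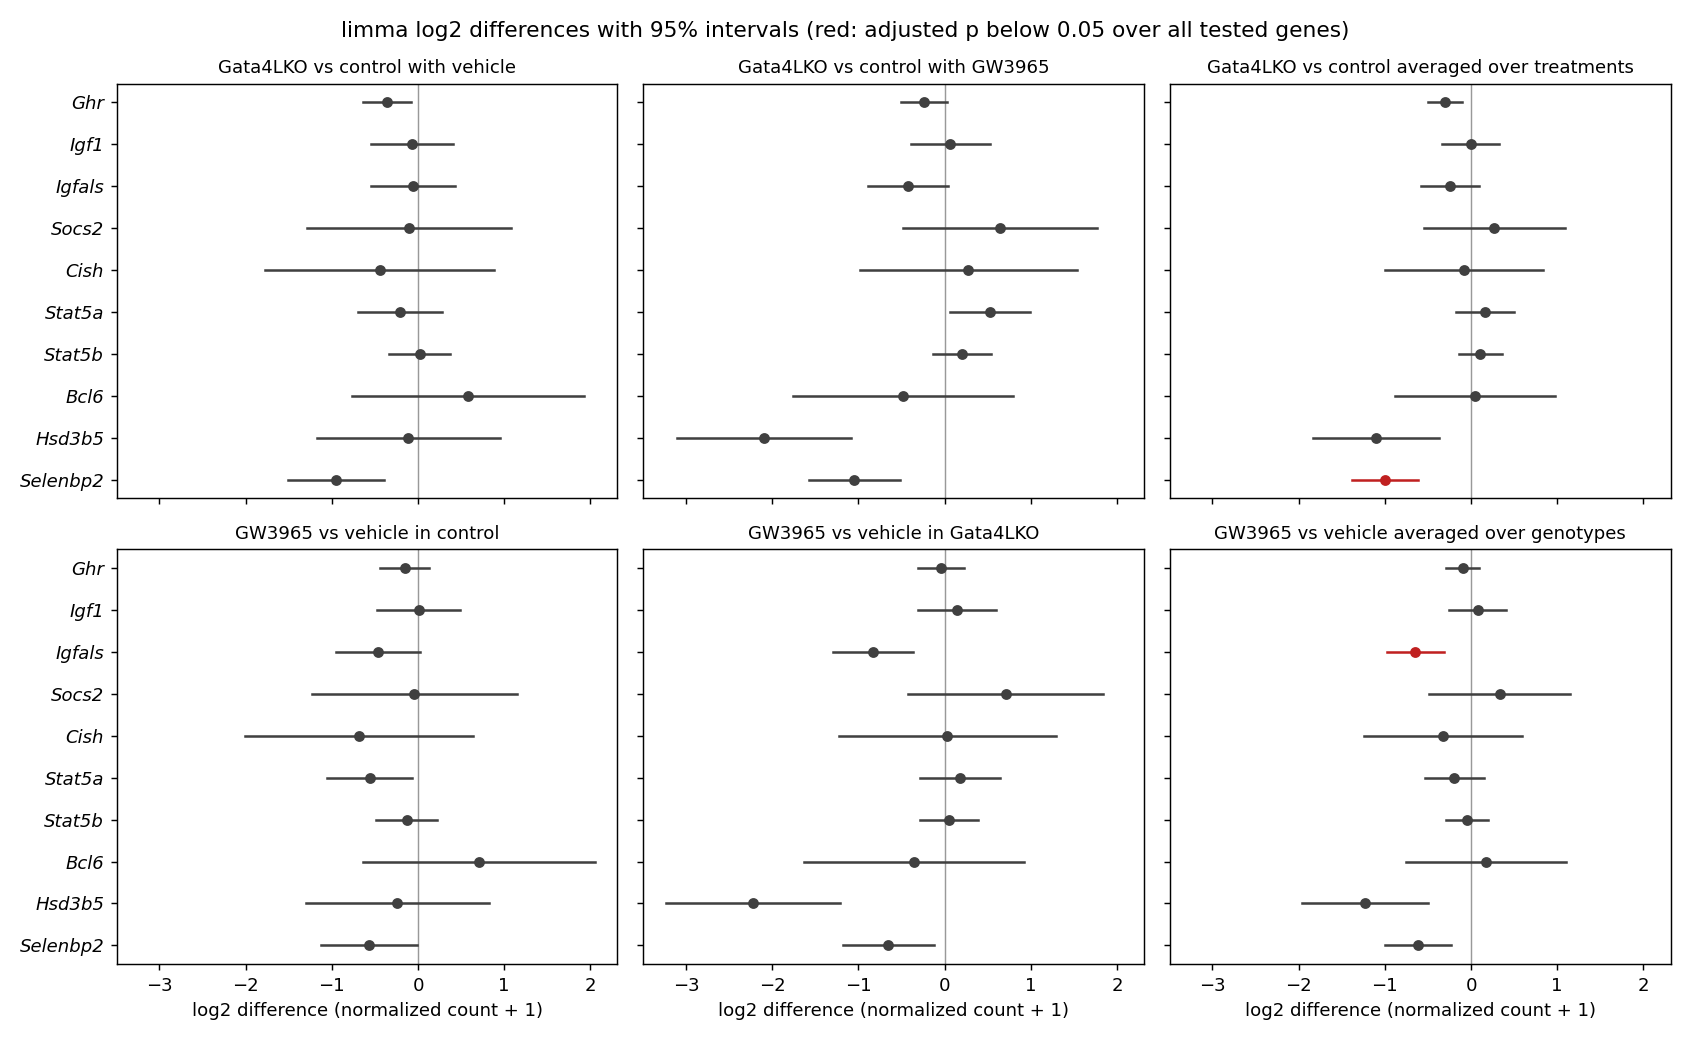
Log2 difference of each member with its 95% interval (horizontal axis, log2 of normalized count + 1) in the comparisons of the design; red points are those with an adjusted p below 0.05. Selenbp2 and Igfals are the members past that threshold, each in 1 averaged comparison, and the widest intervals belong to Bcl6, Cish, Socs2 and Hsd3b5.

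Ghr encodes the growth hormone receptor. Its normalized counts in the control vehicle libraries were 12887, 13243, 11388 and 11375, and in the Gata4LKO vehicle libraries 10201, 9397, 9557 and 8894. In the GW3965 groups the counts were 10321, 11818, 9433 and 12466 in control and 8983, 10705, 7674, 11438.5 and 8058 in Gata4LKO. With vehicle every Gata4LKO library was below every control library, as was so for 3.58% of all genes tested; with GW3965 the groups overlapped. The log2 difference between genotypes with vehicle was -0.36 ± 0.13 (SE; limma adjusted p = 0.627), a 0.779-fold level with a 95% interval of 0.642 to 0.946. Averaged over treatments it was -0.30 ± 0.09 (adjusted p = 0.295), which did not pass the threshold. All 6 hepatocyte markers were also negative in both of these comparisons (medians -0.35 and -0.30), and their part in the Ghr values was not tested. Of the 10 members Ghr varied least between libraries of a group: 15.4% of the genes tested had a smaller residual SD.

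Stat5a and Stat5b encode the transcription factors that the receptor activates. Stat5b counts were 695, 895, 808 and 781 in control and 862, 763, 808 and 782 in Gata4LKO with vehicle, and 928, 613, 725 and 662 in control and 955, 1066, 899.8, 559 and 769 in Gata4LKO with GW3965. The groups overlapped throughout, and Stat5b passed no test, with an averaged log2 difference of -0.04 ± 0.12 for GW3965 and 0.11 ± 0.12 for Gata4LKO (limma adjusted p = 0.885 and 0.948). The 95% intervals allow a GW3965 level of 0.820 to 1.15 times vehicle and a Gata4LKO level of 0.911 to 1.28 times control. Stat5b was low where the mitochondrial share was high: 559 to 769 in those 5 libraries and 725 to 1066 in the other 12.

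Stat5a counts were 172, 116, 140.04 and 139.8 in control and 137, 92.6, 134 and 128 in Gata4LKO with vehicle. The GW3965 libraries had 103, 59.0, 125 and 106 in control and 172, 181, 114, 102 and 134 in Gata4LKO. The lowest value of all was that of control GW3965 replicate 10, and both pairs of groups overlapped. GW3965 minus vehicle was -0.56 ± 0.23 in control (limma adjusted p = 0.452), Gata4LKO minus control with GW3965 was 0.53 ± 0.22 (adjusted p = 0.698), and the interaction was 0.74 ± 0.32 (adjusted p = 0.997). None of the 3 passed the threshold. Averaged differences were -0.19 ± 0.16 for GW3965 and 0.16 ± 0.16 for Gata4LKO. Stat5a shared 8.21% of its 50-base sequences with Stat5b, and 72 exon bases with Stat3 on the opposite strand. Over all libraries Stat5a averaged 127 normalized counts and Stat5b 798. How many Stat5a reads are uncertain for these reasons was not tested.

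Igf1 encodes the main secreted mediator of the hormone's growth effect, and Igfals its carrier subunit. Igf1 counts were 17234, 14903, 11132 and 11192 in control and 12066, 12362, 13538.5 and 13020.2 in Gata4LKO with vehicle. GW3965 libraries had 10707, 14659, 12236 and 17103 in control and 12756, 12946, 8572, 20954 and 18795 in Gata4LKO. The 4 groups overlapped, and the averaged differences were 0.08 ± 0.16 log2 for GW3965 and 0.00 ± 0.16 for Gata4LKO (limma adjusted p = 0.831 and 1.00). The intervals run from 0.839 to 1.33 times vehicle and from 0.794 to 1.26 times control. Igf1 was high where the mitochondrial share was high: 14659 to 20954 in those 5 libraries and 8572 to 14903 in the other 12. The part of that share in the Igf1 values was not tested further.

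Igfals counts were 707, 1124, 754 and 810 in control and 710.07, 894, 878 and 747 in Gata4LKO with vehicle. With GW3965 they were 641, 546, 692 and 558 in control and 627, 572, 465, 231 and 489 in Gata4LKO. Every GW3965 library was below every vehicle library of its genotype, as held for 2.71% of all genes in control and 2.34% in Gata4LKO. Averaged over genotypes, GW3965 minus vehicle was -0.64 ± 0.16 log2 (limma adjusted p = 0.0480), a 0.640-fold level with a 95% interval of 0.507 to 0.808. Within Gata4LKO the difference was -0.83 ± 0.22 (adjusted p = 0.135), and within control the adjusted p was 0.604. In the authors' deposited table, Igfals within Gata4LKO had a log2 fold change of -0.75 with an adjusted p of 0.0415, where 1.33% of all genes with an adjusted p were below 0.05. The difference between genotypes averaged -0.24 ± 0.16 and was not called (adjusted p = 0.856).

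The Igfals call lay at the threshold. It was lost without the 5 libraries of high mitochondrial share (-0.47, limma adjusted p = 0.0651), and it was kept in 4 of the 17 fits that each left out 1 library, those without control vehicle replicate 1 or without Gata4LKO GW3965 replicate 14, 15 or 17. Over these 17 fits the difference ranged from -0.70 to -0.52 and the adjusted p from 0.0124 to 0.108. Igfals was 231 to 707 in the 5 libraries of high mitochondrial share and 465 to 1124 in the other 12, and beyond these alternatives its part in the difference was not tested. Markers of other cells moved in the same comparisons. Summed Kupffer cell and macrophage markers were 1868 to 2622 with vehicle and 3190 to 4401 with GW3965 in control, without overlap, and 3215 to 3827 and 3174 to 4721 in Gata4LKO. Cd5l was the 1 of the 6 called (higher with GW3965, averaged 0.72 ± 0.15 log2, limma adjusted p = 0.0139). It gave a large part of the higher sum in control, with a mean of 611 with vehicle and 1444 with GW3965. In control all 6 of these markers were positive (median 0.43). In Gata4LKO all 5 stellate cell markers were higher with GW3965 at an unadjusted p below 0.05 (median 0.57), as were 2 of 5 sinusoidal endothelium markers, all 5 of which were positive (median 0.45), and none of the 10 was called. Of all genes tested, 12% had such a p in this comparison, in either direction. Of 6 hepatocyte markers 5 were negative in control and 4 in Gata4LKO (medians -0.15 and -0.07). All 3 erythroid cell markers were negative for GW3965 averaged over genotypes (median -0.60). In limma 2 of these 3 had an unadjusted p below 0.05, against 15.3% of all genes tested, and 1 was called lower, against 0.441%. The part of these in the Igfals values was not tested.

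Socs2 and Cish encode feedback inhibitors of the receptor that STAT5 induces. Socs2 counts were 177, 235, 51.1 and 93.2 in control and 82.1, 179.9, 96.9 and 103 in Gata4LKO with vehicle. With GW3965 they were 263, 94.0, 86.6 and 82.4 in control and 159, 60.5, 182, 181 and 608 in Gata4LKO. A single library stood far above the rest in each GW3965 group, replicate 9 in control and replicate 18 in Gata4LKO. Averaged differences were 0.33 ± 0.39 log2 for GW3965 and 0.27 ± 0.39 for Gata4LKO (limma adjusted p = 0.693 and 0.969).

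Cish counts were 80.9, 257, 83.3 and 165 in control and 34.7, 141, 158 and 107 in Gata4LKO with vehicle. In libraries given GW3965 they were 106, 74.0, 96.2 and 55.8 in control and 60.5, 25.3, 266, 79.0 and 270.1 in Gata4LKO. The Gata4LKO GW3965 group therefore held both the lowest and the highest Cish value of the study. Averaged differences were -0.33 ± 0.44 log2 for GW3965 and -0.08 ± 0.44 for Gata4LKO (limma adjusted p = 0.729 and 0.994). The 95% intervals of the Cish level, 0.423 to 1.504 times vehicle and 0.501 to 1.78 times control, do not exclude changes of either sign. Exons of Cish overlap the predicted genes Gm17041 and Gm17040 on the opposite strand by 479 and 261 bases. Whether reads were counted by strand (not given in the sources used here) decides if reads of these genes were kept apart, so they cannot be told apart.

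Bcl6 encodes a repressor that STAT5 lowers and that itself represses female-biased genes in male liver. Its counts were 272, 136, 222 and 197 in control and 389, 442, 151 and 312 in Gata4LKO with vehicle. Under GW3965 the counts were 1094, 133, 209 and 379.9 in control and 719, 556, 92.5, 154 and 123 in Gata4LKO. The highest and lowest values differed within each GW3965 group far more than the group means did. Averaged differences were 0.18 ± 0.44 log2 for GW3965 and 0.05 ± 0.44 for Gata4LKO (limma adjusted p = 0.868 and 0.999).

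The residual SD of Bcl6, Cish, Socs2 and Hsd3b5 was 1.05, 1.03, 0.92 and 0.83 on the log2 scale. Of all genes tested, 94.8%, 94.4%, 92.6% and 90.7% varied less than these members within the groups. Stat5b (33.6%) and Ghr (15.4%) lay at the other end.

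Hsd3b5 encodes a male-biased hydroxysteroid dehydrogenase of the liver. Its counts were 689.8, 1734, 1486 and 821 in control and 970.3, 1549, 1148 and 621 in Gata4LKO with vehicle. With GW3965 they were 1047, 1159, 1087 and 563 in control and 302, 735, 157, 189 and 72.5 in Gata4LKO. Of the 5 Gata4LKO GW3965 libraries, 4 lay below all other libraries of the study, and replicate 15 overlapped both comparison groups. GW3965 minus vehicle within Gata4LKO was -2.22 ± 0.48 log2 (limma adjusted p = 0.0542), a 0.214-fold level with a 95% interval of 0.107 to 0.430. Gata4LKO minus control with GW3965 was -2.09 ± 0.48 (adjusted p = 0.141), and neither passed the threshold. In the authors' deposited table Hsd3b5 within Gata4LKO had a log2 fold change of -1.88 with GW3965 and an adjusted p of 0.0391.

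The interaction for Hsd3b5 was -1.98 ± 0.70 log2 (unadjusted p = 0.0108, limma adjusted p = 0.896), so a difference between the GW3965 responses of the genotypes was not called. Averaged over the other factor, the difference was -1.23 ± 0.35 for GW3965 (adjusted p = 0.0847) and -1.10 ± 0.35 for Gata4LKO (adjusted p = 0.317). Without Gata4LKO GW3965 replicate 15, the highest of its group, Hsd3b5 was called within Gata4LKO (-2.66, adjusted p = 0.00567), between genotypes with GW3965 (-2.53, adjusted p = 0.0289) and for GW3965 averaged over genotypes (-1.45, adjusted p = 0.0104). This was the 1 fit with a call among 9, 9 and 17 fits that each left out 1 library. Over those fits the limma adjusted p reached 0.197, 0.377 and 0.182. Without the 5 libraries of high mitochondrial share the GW3965 difference within Gata4LKO was -1.63 (adjusted p = 0.171). In those 5 libraries Hsd3b5 was 72.5 to 1159, and in the other 12 it was 157 to 1734.

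Selenbp2 counts were 243, 661, 315 and 242 in control and 151, 186, 182 and 166 in Gata4LKO with vehicle. With GW3965 they were 221, 168, 337 and 202 in control and 122, 118, 116, 86.7 and 102 in Gata4LKO. Every Gata4LKO library was below every control library of the same treatment; the share of all genes for which this was so was 3.58% with vehicle and 1.14% with GW3965. The mean ± SD was 365 ± 200.49 (n = 4) in control and 171 ± 16.2 (n = 4) in Gata4LKO with vehicle, and 232 ± 73.2 (n = 4) and 109 ± 14.6 (n = 5) with GW3965. Averaged over treatments, Gata4LKO minus control was -1.001 ± 0.18 log2 (limma adjusted p = 0.0268), a 0.4997-fold level with a 95% interval of 0.383 to 0.652.

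Within 1 treatment the Selenbp2 difference between genotypes was of like size but was not called: -0.96 ± 0.26 with vehicle (limma adjusted p = 0.377) and -1.04 ± 0.25 with GW3965 (adjusted p = 0.163). The authors' deposited tables give -1.09 (adjusted p = 0.0367) and -1.08 (adjusted p = 0.0241), where 0.434% and 0.51% of the genes with an adjusted p were below 0.05. GW3965 minus vehicle was -0.57 ± 0.26 in control (adjusted p = 0.541) and -0.66 ± 0.25 in Gata4LKO (adjusted p = 0.329), and averaged -0.61 ± 0.18 (adjusted p = 0.102). In Gata4LKO every GW3965 library was below every vehicle library, as held for 2.34% of all genes tested, and in control the groups overlapped.

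The averaged Selenbp2 call was kept in 9 of the 17 fits that each left out 1 library and without the 5 libraries of high mitochondrial share (-1.15, limma adjusted p = 0.0455). It was lost without control vehicle replicate 3, Gata4LKO vehicle replicate 5, 7 or 8, control GW3965 replicate 12, or Gata4LKO GW3965 replicate 14, 15 or 18, with an adjusted p of 0.0507 to 0.0744. With Gm5345 counts below 10 as a term it was -0.89 (adjusted p = 0.146). Selenbp2 shares 43.9% of its 50-base sequences with Selenbp1, its near copy, so how reads were divided between them bears on its counts. Selenbp1 was 1380 ± 478 (n = 4) in control and 1351 ± 58.2 (n = 4) in Gata4LKO with vehicle, and 1334 ± 519 (n = 4) and 1258 ± 458 (n = 5) with GW3965, and was not called (averaged genotype difference -0.01 ± 0.21, adjusted p = 0.999). Hepatocyte markers went the same way as Selenbp2: 6 of 6 were negative between genotypes with vehicle, 5 of 6 with GW3965 and 6 of 6 averaged over treatments (median -0.30, 3 at an unadjusted p below 0.05). Kupffer cell and macrophage markers were positive in 6 of 6 averaged over treatments (median 0.43). Of 5 stellate cell markers 4 were higher between genotypes with GW3965 at an unadjusted p below 0.05, and the fifth was positive too. Of all genes tested, 7.19% had such a p averaged over treatments and 6.47% with GW3965. None of these hepatocyte, Kupffer cell or stellate cell markers was called between genotypes by limma. The part of these cell types in the Selenbp2 values was not tested.

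Libraries also differed together within groups. Deviations from the group means (log2 scale, 17 libraries) were compared for all 45 pairs of members, with two-sided permutation tests of 100000 shuffles within groups. Igfals and Selenbp2 deviated together, with Pearson r = 0.65 (permutation p = 1.5e-04, adjusted over the 45 pairs 0.00675) and Spearman rho = 0.86 (permutation p = 1.4e-04, adjusted 0.0063). Without the 2 libraries farthest from the median Igfals deviation r was 0.82, and within the 12 libraries of lower mitochondrial share it was 0.68. No other pair passed the adjusted threshold. For Socs2 and Cish r was 0.68 and rho 0.69 (permutation p = 0.00944 and 0.00506, adjusted 0.142 and 0.114), and r was 0.68 in the 12 libraries and 0.43 without the 2 farthest. For Igfals and Stat5b r was 0.79 and rho 0.63 (permutation p = 0.00519 and 0.0157, adjusted 0.117 and 0.148), and r was 0.46 in the 12 libraries and 0.57 without the 2 farthest. Igf1 and Stat5b had r = -0.67 and rho = -0.70 (permutation p = 0.0356 and 0.0164, adjusted 0.315 and 0.148), -0.19 in the 12 libraries and -0.61 without the 2 farthest. Values within a library share its depth and size factor. Pairs of other genes were not tested this way, so nothing particular to Igfals and Selenbp2 is read from their correlation.

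**Figure D3:**
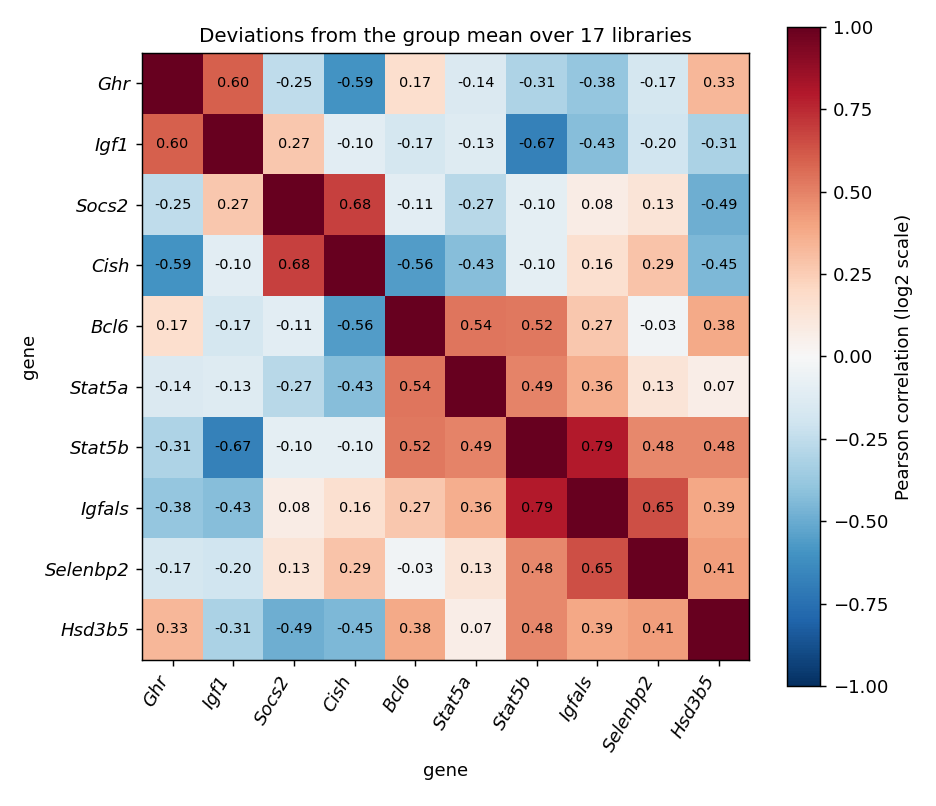
Pearson correlation (colour and printed number) of the deviations from the group mean on the log2 scale over 17 libraries, with members on both axes. Igfals and Selenbp2 (0.65) are the pair that passed the adjusted permutation test; Igfals with Stat5b (0.79) and Socs2 with Cish (0.68) did not.

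By the same measure over 17 libraries, the genes most like Ghr were Gm3375 and Hook3 (r = 0.87 and 0.86), those most like Igf1 were Emsy and Bptf (0.96 and 0.95), and those most like Igfals were Sidt2 and Adck5 (0.93 and 0.92). Socs2 had Arhgap29 and Smad9 (0.86 and 0.78), and Cish had Pdss1 and Gm7652 (0.89 and 0.85). Stat5a was followed by Nat1 and Vipas39 (0.85 and 0.84), and Stat5b by Pepd and Dcaf11 (0.94 and 0.94). Bcl6 went with Tnfaip3 and Pck1 (0.86 and 0.84), Hsd3b5 with the pseudogene Mup-ps21 and with Slc22a28 (0.86 and 0.84), and Selenbp2 with Keg1 and Slc7a5 (0.82 and 0.82). Keg1, which encodes a glycine N-acyltransferase-like protein, is on the male-biased list described next. These genes are the highest of 13379 correlations for each member and are given without a test.

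The other genes of the pathway were described by list, and the lists were chosen with earlier results of these data known. Genes of a list were measured in the same libraries, so their signs are not separate observations. Of 20 other male-biased liver genes, all tested, 19 had a negative log2 difference for GW3965 in Gata4LKO, with a median of -0.71, against 50.6% negative and a median of 0.00 over all genes tested. Cyp2u1, a cytochrome P450, fell from 320 ± 33.2 (n = 4) to 136 ± 64.0 (n = 5), which is -1.31 ± 0.27 log2 (adjusted p = 0.0485 by limma). An unadjusted p below 0.05 was found for 7 of the 20, against 12% of all genes tested. Of the 20, Cyp2u1 was the 1 gene called by limma in any of the 7 comparisons; edgeR called 0 and DESeq2 called 3, Cyp2u1, Nudt7 and Cyp2d9. Nudt7, a peroxisomal coenzyme A diphosphatase, was at 4935 ± 1395 (n = 4) and 2137 ± 819 (n = 5), and Cyp2d9, a steroid hydroxylase, at 11716 ± 1144 (n = 4) and 6697 ± 2837 (n = 5), with adjusted p = 0.0915 and 0.113. Between genotypes with GW3965, 18 of the 20 were negative (median -0.63, against 52.9% and -0.01 over all genes) and 0 were called by limma, edgeR or DESeq2. In limma 6 had an unadjusted p below 0.05, against 6.47% of all genes tested. With vehicle 9 of 20 were negative (median 0.10), and for GW3965 in control 14 of 20 (median -0.20).

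In the same comparisons stellate cell markers were positive in 5 of 5, with medians of 0.57 for GW3965 in Gata4LKO and 0.52 between genotypes with GW3965. Of them 5 and 4 had an unadjusted p below 0.05, against 12% and 6.47% of all genes tested. The part of stellate cell markers in the values of the male-biased genes was not tested. The medians of the male-biased list also moved with the libraries of high mitochondrial share. Without those 5 libraries, 18 of the 20 male-biased genes were negative for GW3965 in Gata4LKO (median -0.51), and 13 of 20 between genotypes with GW3965 (median -0.17). No list was tested as a set, and nothing particular to a list is read from these counts.

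Of 20 female-biased liver genes, 12 were tested. Acot3, a peroxisomal acyl-CoA thioesterase, rose with GW3965 averaged over genotypes by 2.02 ± 0.39 log2 (limma adjusted p = 0.0106), from 172 ± 124 (n = 4) to 805 ± 450 (n = 4) in control and from 246 ± 178 (n = 4) to 666 ± 337 (n = 5) in Gata4LKO. It was the 1 called gene of the list. For Gata4LKO averaged over treatments 10 of the 12 were positive (median 0.33), while 52.8% of all genes tested were negative (median -0.01), and without the 5 libraries of high mitochondrial share 5 of 11 were positive. Cyp2b9, a cytochrome P450 of female liver, ranged from 0.946 to 370 in control and from 45.2 to 324 in Gata4LKO libraries with vehicle. In GW3965 libraries Cyp2b9 ranged from 0 to 355 in control and from 28.9 to 97.4 in Gata4LKO, and it passed no test. Regulators of sex-biased liver genes held 10 genes, of which 0 were called in any of the 7 comparisons by limma, edgeR or DESeq2. In limma 2 of them, the liver transcription factor genes Foxa1 and Foxa2, had an unadjusted p below 0.05 in at least 1 comparison, as did 29.1% of all genes tested.

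Of 16 genes of growth hormone receptor signalling, 15 were tested. Irs1, an adaptor of insulin and IGF1 receptors, rose with GW3965 averaged over genotypes by 0.46 ± 0.11 log2 (limma adjusted p = 0.0490), from 327 ± 60.9 (n = 4) to 457 ± 98.2 (n = 4) in control and from 365 ± 39.7 (n = 4) to 499 ± 86.1 (n = 5) in Gata4LKO. No other gene of the list was called by limma or edgeR, and DESeq2 called Irs1 and Stat3. Stat3, a transcription factor of cytokine signalling, averaged -0.39 ± 0.11 (limma adjusted p = 0.0944), and the adaptor Grb2 -0.23 ± 0.09 (adjusted p = 0.214).

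Of 13 genes of the IGF axis, which hold the IGF receptors and binding proteins, 9 were tested. Of these, 0 were called in any of the 7 comparisons by limma or edgeR and 1, Igfbp4, by DESeq2, and 6 had an unadjusted p below 0.05 in at least 1 of them in limma, beside the 29.1% of all genes. In the averaged GW3965 comparison 2 had an unadjusted p below 0.05 upward and 2 downward, against 15.3% of all genes in either direction. The binding protein genes Igfbp4, Igfbp2 and Igfbp7 had the smallest p, with -0.47 ± 0.13 (adjusted p = 0.0838), 0.70 ± 0.22 (adjusted p = 0.125) and 0.80 ± 0.31 (adjusted p = 0.226).

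**Figure D4:**
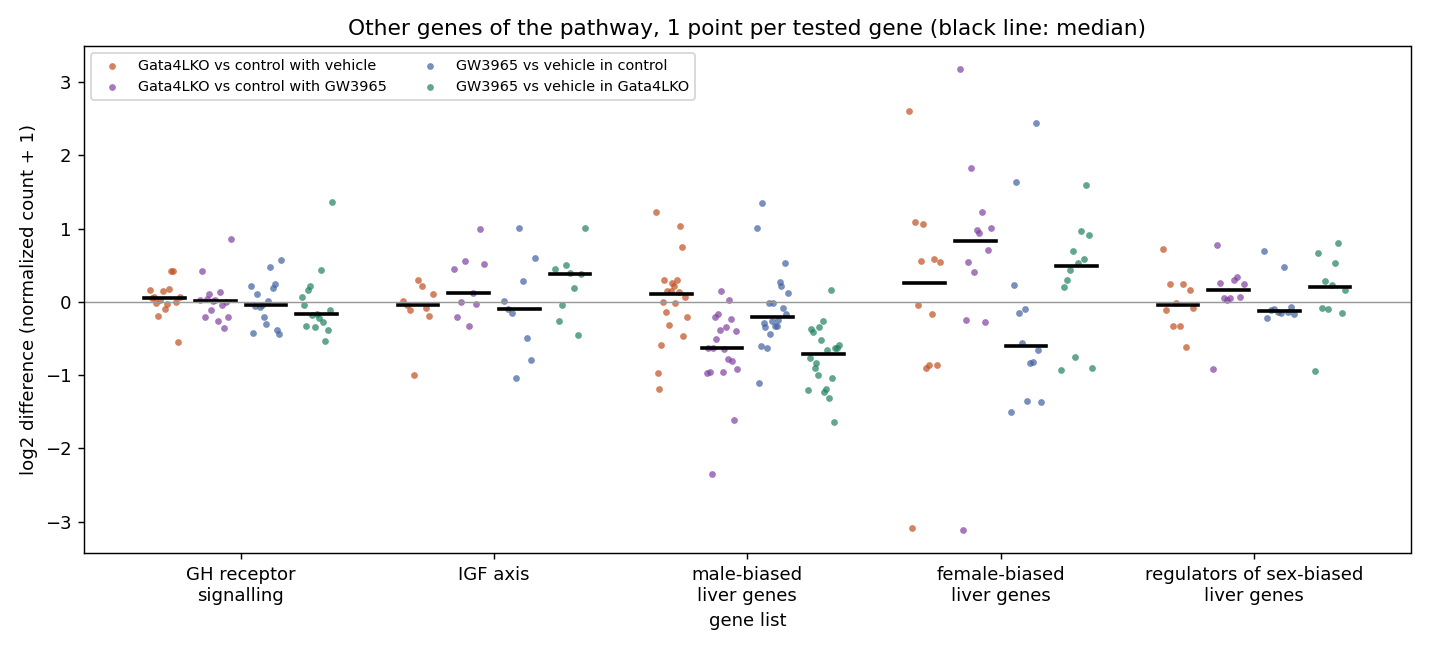
Log2 difference (vertical axis, log2 of normalized count + 1) of every tested gene of 5 lists of related genes (horizontal axis), 1 colour per comparison between groups, with the median as a black line. For the male-biased genes the medians are -0.71 for GW3965 in Gata4LKO and -0.63 between genotypes with GW3965, against 0.10 between genotypes with vehicle. The lists were chosen with earlier results of these data known.

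Near copies of members were followed because reads can be shared between them. Hsd3b3, a related dehydrogenase, rose with GW3965 averaged over genotypes by 0.53 ± 0.13 log2 (limma adjusted p = 0.0416), from 3009 ± 437 (n = 4) to 4392 ± 1022 (n = 4) in control and from 2370.02 ± 165 (n = 4) to 3539 ± 1022 (n = 5) in Gata4LKO, while Hsd3b5 was not called there. Hsd3b2, another relative, was at 1187 ± 202 (n = 4) with vehicle and 595 ± 211 (n = 5) with GW3965 in Gata4LKO, a difference of -1.05 ± 0.27 log2 in the direction of Hsd3b5; limma did not call it (adjusted p = 0.118) and DESeq2 did. Hsd3b5 shared no 50-base sequence with Hsd3b3 or Hsd3b2 and 0.467% with Hsd3b6, whose mean was 3.92 normalized counts. Among the relatives compared the share with Hsd3b6 was the largest, and Hsd3b4 was not compared.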

How the data were processed

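Liver RNA of 17 libraries was sequenced. TRIzol and spin-column extraction and the KAPA mRNA Hyperprep kit were used, per the labels' protocols. STAR 2.6.0c, mm10, FastQC and DESeq2 are named, per the submitters' processing notes; counter, annotation and strand setting stand as not given in the sources used here. A deposited table holds a normalized signal per gene, reads divided by 1 size factor per library: 100% of values were within 0.05 read of a whole number, in every library. The authors' deposited comparison tables hold log2 fold changes with p-values, raw and adjusted, per the file headers.

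limma 3.58.1 in R 4.3.3 was fitted to log2(normalized count + 1), which understates changes of low genes; the test was checked on simulated data. Alternatives were pseudocounts of 5 and 0.1, no filter, TMM scaling, edgeR 4.0.16 and DESeq2 1.42.0 on recovered reads, only the groups compared, leaving out the libraries of high mitochondrial share or each library in turn, and, chosen after seeing the data, a term for high mitochondrial share or for Gm5345 counts below 10. Positions came from GENCODE M21, which held 24656 of the 24676 gene identifiers.

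The members and lists were chosen with earlier results of these data known. All members were named, and from the pathway lists every gene called by limma and the 3 of smallest p in the comparison described; for likeness, the 2 genes of highest correlation with each member. Hsd3b2, Hsd3b6, Selenbp1, Cd5l and Cyp2b9's range were given after their values were seen.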

Additional observations from a re-analysis of the deposited data

Results flagged for a closer look

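In the 4 groups, Dixon's criterion for a single distant value was applied to the 10 members and Gata4, 44 sets of values in all, and 2 sets had such a value; chance gives about 1 in 20. Both were Socs2, the feedback inhibitor of the growth hormone receptor. Control GW3965 replicate 9 was at 263 normalized counts, while the next library of its group was at 94.0. Gata4LKO GW3965 replicate 18 was at 608, while the next was at 182. The first of these libraries also held the highest Bcl6 count of the study, 1094, and the second the highest Cish count, 270.1, and the lowest Hsd3b5 count, 72.5. Replicate 18 was among the 5 libraries of high mitochondrial share, with 16.9%, and replicate 9, with 6.13%, was not.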

How the results depend on the processing

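No paired analysis was possible because every replicate number belongs to a single library. The number of members called was 0 as reported for the pairs of groups and the interaction. With DESeq2 it was 1 for genotype with vehicle (Selenbp2, adjusted p = 0.0397), 1 for genotype with GW3965 (Selenbp2, adjusted p = 0.0225), 2 for GW3965 in Gata4LKO (Hsd3b5 and Igfals, adjusted p = 0.0361 and 0.0377) and 2 for GW3965 averaged over genotypes (Igfals and Selenbp2, adjusted p = 0.00531 and 0.0329). With high mitochondrial share as a term it was 2 for genotype with GW3965 (Hsd3b5, -2.19, and Selenbp2, -1.09; limma adjusted p = 0.0294 and 0.0323). For GW3965 averaged over genotypes, where the count was 1, it was 0 with a pseudocount of 0.1 (Igfals, -0.65, adjusted p = 0.0508), without the filter (-0.64, 0.0618), without the libraries of high mitochondrial share (-0.47, 0.0651), with high mitochondrial share as a term (-0.49, 0.0918) and with Gm5345 as a term (-0.66, 0.113). For genotype averaged over treatments the count of 1 became 0 with Gm5345 as a term (Selenbp2, -0.89, adjusted p = 0.146). The cause was not tested. Both calls were kept with a pseudocount of 5, with TMM, with edgeR and with DESeq2. Leaving out 1 library gave 0 to 1 members for genotype with GW3965, for GW3965 in Gata4LKO and for genotype averaged over treatments, and 0 to 2 for GW3965 averaged over genotypes.

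The sign changed for members that passed no test. For GW3965 averaged over genotypes, Igf1 was -0.14 and Stat5b 0.13 and Stat5a 0.062 without the libraries of high mitochondrial share, and Igf1 was -0.12 and Stat5b 0.094 with that share as a term. For genotype averaged over treatments, Igf1 was 0.0015 with TMM, 0.012 with edgeR, 0.011 with DESeq2, 0.012 without the libraries of high mitochondrial share, 0.11 with that share as a term and 0.0499 with Gm5345 as a term. In that comparison Socs2, 0.27 as reported, was -0.12 without those libraries, Cish 0.16 with edgeR and 0.17 with DESeq2, and Bcl6 -0.082 with high mitochondrial share and -0.062 with Gm5345 as a term. Leaving out 1 library moved Igf1 from -0.073 to 0.088, Cish from -0.27 to 0.16 and Bcl6 from -0.17 to 0.34 for genotype, and Stat5b from -0.10 to 0.0296 and Bcl6 from -0.11 to 0.39 for GW3965. Over the 10 members and 7 comparisons, leaving out 1 library changed the sign in at least 1 fit for 21 of 70 differences, 0 of them called as reported. Among these Cish ranged from -0.68 to 0.036 for genotype with vehicle and Bcl6 from -0.92 to 0.094 for genotype with GW3965.

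Over all genes the number called depended on the test. DESeq2 called 49, 81, 226, 200, 26, 527 and 129 genes in the 7 comparisons, against 2, 8, 106, 33, 2, 238 and 30 as reported. Fits of only the 2 groups compared called 21 for genotype with vehicle, 1 for genotype with GW3965 and 19 for GW3965 in control. Without the filter 57 were called for GW3965 in control, and without the libraries of high mitochondrial share 14 for genotype with vehicle, 64 for GW3965 in control, 1 for the interaction and 56 for genotype averaged. With that share as a term the numbers were 51 for genotype with GW3965, 4 for the interaction and 104 for genotype averaged, with Gm5345 as a term 8 for genotype averaged, with edgeR 5 for genotype with GW3965 and 0 for the interaction, and with a pseudocount of 0.1 they were 0 for the interaction. Leaving out 1 library moved the number from 0 to 3, 2 to 21, 22 to 109, 6 to 78, 0 to 9, 142 to 335 and 9 to 57 in the 7 comparisons. Depth limits the lowest members: the fewest reads in a library were 31 for Cish, 45 for Selenbp2, 53 for Stat5a and 54 for Socs2.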
